A study of Mus musculus with 18 samples.

Results

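The genes described here encode respiratory complex I, respiratory complex III and the mitochondrial ATP synthase, together with cytochrome c. They were taken by name from mouse heart arrays: every probe set whose single platform symbol begins with Nduf, Uqcr or Atp5, or is Cyc1 or Cycs, with the probe set of highest mean signal kept for each gene. This gave 54 genes of the 8252 genes with 1 symbol on the array, measured by 74 probe sets. Of these, 29 encode subunits of complex I, 8 of complex III and 14 of the ATP synthase, 2 are complex I assembly factors (Ndufaf1 and Ndufaf4) and 1 is Cycs. A further 8 probe sets that match several symbols at once, such as Ndufs6 with Ndufs6b, were left out. Symbols are those of the platform annotation, so the ATP synthase genes carry their older names, such as Atp5e for Atp5f1e.

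Complex I takes electrons from NADH and passes them to ubiquinone, complex III passes them on to cytochrome c, and both pump protons across the inner mitochondrial membrane. The ATP synthase lets those protons flow back and makes ATP, of which the beating heart uses a great deal. Complex I has a matrix arm, where NADH is oxidised, and a membrane arm, which pumps. The ATP synthase has a catalytic head in the matrix, a ring of c subunits that turns in the membrane, a peripheral stalk that holds the head still, and small membrane subunits.

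The hearts came from mice labelled FVB, a common inbred strain, and from mice with a cardiac-specific transgene for tumour necrosis factor alpha (TNF), a model of heart failure. The FVB mice were all 3 weeks old, with 2 distinct arrays of females and 3 of males. The transgenic mice were 3-week-old females (3 arrays), 3-week-old males (3), 13-week-old males (3) and 40-week-old females (3), so at the later ages sex and age go together and no FVB array of that age was analysed here. The labels name neither the promoter nor the cell type that drives the transgene. They do not state that the samples of a group were separate animals. The p-values therefore measure the spread from array to array alone, and that spread may be technical.

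The table has 18 columns, of which FVB females 1 and 2 are identical in every value, so they were counted as 1 sample and 17 arrays remained. That array (female 1/2 below) stood apart: its Spearman correlations with the other arrays were 0.775 to 0.856, against 0.891 to 0.977 among the others. The arrays labelled FVB male 1 and FVB male 2 had signals of 1381 and 2706 for Xist, a transcript of females, against 5.90 on FVB male 3, which goes against their labels. For the Y-linked Eif2s3y they read 298.7 and 67.4, against 544.9 on FVB male 3, 115.3 on female 1/2 and 40.9 on FVB female 3, so male 1 carried both signals. Tnf itself read 12.5 to 124.9 in FVB and 5476 to 12082 on the transgenic arrays. Of the 22 cardiomyocyte markers on the array, none was at the floor on all arrays of any group.

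At 3 weeks, 47 of the 50 members that could be tested were lower in transgenic than in FVB hearts, and 0 were higher. The lower calls made up 21.9% of all 7453 probe sets tested, and the higher calls 24.7%. The median log2 difference of the members was -0.88, a 1.84-fold lower signal, against -0.01 for all probe sets tested. All 50 lay below 0, from -1.24 for Atp5e to -0.09 for Ndufb3. These counts rest on arrays as the authors scaled them, and setting the arrays to a common cardiomyocyte marker level instead left 0 members lower and 2 higher, as described further on. The test was limma on log2 signal, with the female and male differences averaged and p-values adjusted over all probe sets tested (called under 0.05). In whole hearts, fewer cells of a type and less RNA per cell cannot be told apart. Atp5j2, Ndufa1, Ndufc2 and Ndufa12 fell outside the brightest 60% of probe sets and were not tested. With no such filter they differed by -0.91, -0.86, -0.41 and -0.24 (limma adjusted p = 0.018, 0.083, 0.17 and 0.15), and the female 1/2 array was the highest FVB array for each.

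**Figure D1:**
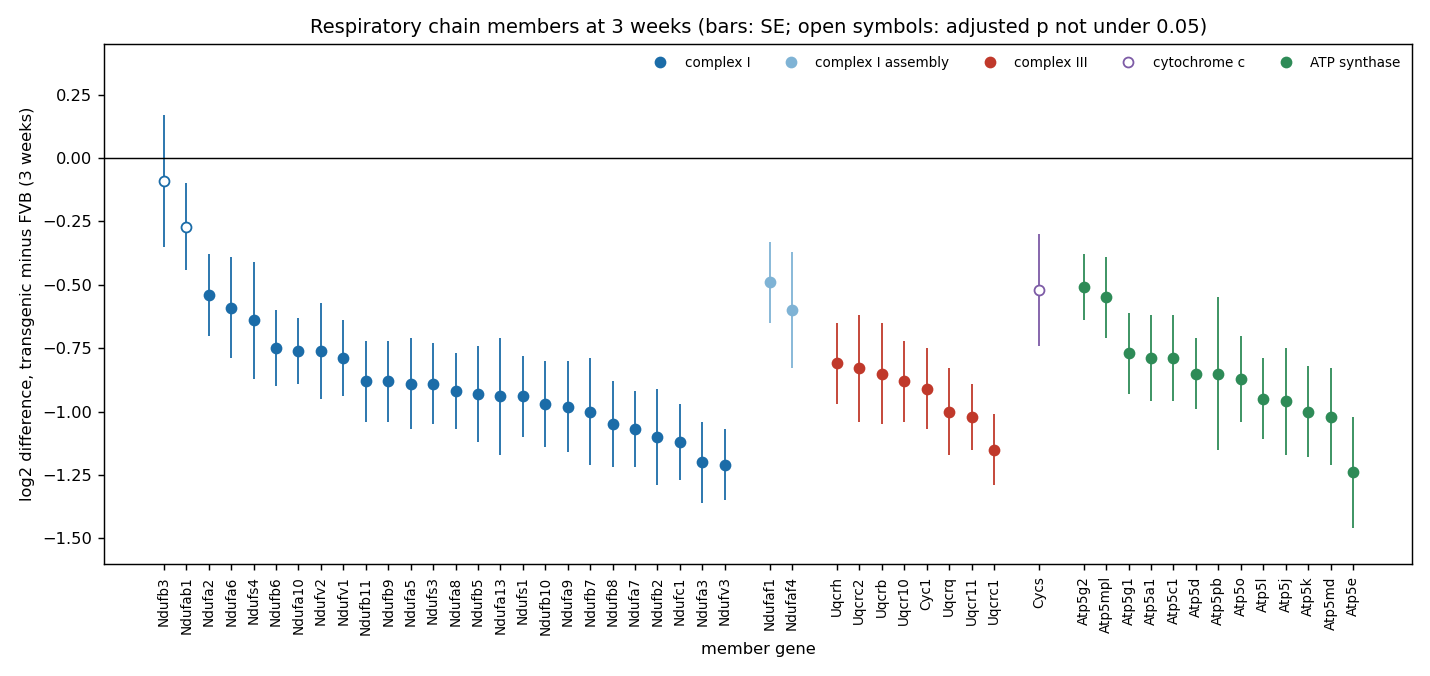
The log2 difference between transgenic and FVB hearts at 3 weeks (y axis) for the 50 members tested (x axis), as points with standard errors, coloured by complex and with open symbols where the adjusted p was not under 0.05. The 3 open symbols are Ndufb3, Ndufab1 and Cycs, and no member lies above 0. With the arrays set to a common cardiomyocyte marker level, 0 members were called lower.

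The medians of the complexes lay close together. The median log2 difference was -0.91 for complex I (24 of 26 tested lower), -0.90 for complex III (8 of 8 lower) and -0.85 for the ATP synthase (13 of 13 lower). Members of complex III lay between -1.15 and -0.81, and those of complex I between -1.21 and -0.09. A span tends to widen with the number of members, here 8 against 26, and the -0.09 is that of Ndufb3 (SE 0.26). No difference between complexes was tested, and each array gives its own gap. The mean log2 signal of complex I minus that of complex III was -0.94 ± 0.08 (SD, n = 5) on the FVB arrays and -0.88 ± 0.10 (n = 6) on the 3-week transgenic arrays, with ranges that overlapped. Complex I minus ATP synthase was 0.69 ± 0.15 and 0.67 ± 0.12, and complex III minus ATP synthase 1.63 ± 0.10 and 1.55 ± 0.08, again with overlap. These gaps hold different probe sets, so only their change between groups can be read.

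Separation between arrays was common among the members. In 36 of the 50, every 3-week transgenic array was below every FVB array, which is so for 9.14% of all probe sets tested (higher without overlap: 14.5%, and 0 members). This was so for 18 members of complex I, 8 of complex III, 9 of the ATP synthase and Cycs. For 13 members the log2 difference was -1 or lower.

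The promoters of 4 members are shown, 1 for each complex and that of Cycs, because letters of factors known to bind respiratory gene promoters occur in them. They are the 250 bases before the start of Ndufa8 (complex I, log2 difference -0.92 ± 0.15), Uqcr11 (complex III, -1.02 ± 0.13), Cycs (-0.52 ± 0.22) and Atp5l (ATP synthase, -0.95 ± 0.16). The sequences are from RefSeq on build GRCm38.p6 and are printed 5′ to 3′ on the strand of the gene. These windows were chosen for holding such letters, and any part of the factors in the members' differences was not tested. Capitals mark matches on either strand to GCATGCGC (the core of the NRF1 motif), AAGGTCA (the core site of estrogen-related receptors), CCGGAAG (Ets factors such as GABPA) and GGGCGG (Sp1). The windows are chr2:36049339-36049588, chr10:80406822-80407071, chr6:50566570-50566819 and chr9:44920743-44920992, all on the minus strand.
Ndufa8: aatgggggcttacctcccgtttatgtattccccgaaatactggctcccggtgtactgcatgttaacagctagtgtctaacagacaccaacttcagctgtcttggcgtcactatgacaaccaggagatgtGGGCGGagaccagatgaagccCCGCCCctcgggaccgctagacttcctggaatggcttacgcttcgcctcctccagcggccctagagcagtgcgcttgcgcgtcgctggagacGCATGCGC
Uqcr11: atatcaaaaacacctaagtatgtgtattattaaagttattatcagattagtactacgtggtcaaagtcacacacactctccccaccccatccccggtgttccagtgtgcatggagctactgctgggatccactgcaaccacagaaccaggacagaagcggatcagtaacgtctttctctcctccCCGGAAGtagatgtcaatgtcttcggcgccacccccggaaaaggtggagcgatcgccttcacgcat
Cycs: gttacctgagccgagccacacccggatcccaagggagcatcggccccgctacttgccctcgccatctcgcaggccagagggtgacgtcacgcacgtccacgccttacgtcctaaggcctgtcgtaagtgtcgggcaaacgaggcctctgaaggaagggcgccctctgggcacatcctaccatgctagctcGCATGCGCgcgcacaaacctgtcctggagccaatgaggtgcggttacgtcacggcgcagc
Atp5l: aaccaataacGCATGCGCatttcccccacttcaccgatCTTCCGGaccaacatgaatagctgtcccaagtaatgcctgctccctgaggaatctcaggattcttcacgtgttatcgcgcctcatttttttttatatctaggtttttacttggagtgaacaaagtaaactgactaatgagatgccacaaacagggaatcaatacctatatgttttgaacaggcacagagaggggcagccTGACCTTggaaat

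The NRF1 letters began 8 bases before the start of Ndufa8, 60 bases before that of Cycs and 240 bases before that of Atp5l. The Atp5l window also held the Ets letters and, 13 bases before the start, the estrogen-related receptor letters, both on the opposite strand. The Uqcr11 window held the Ets letters alone, and that of Ndufa8 the Sp1 letters at 2 places. Windows were found for 45 of the 54 members. The NRF1 letters were in 7 of them (15.6%), against 2.56% of all 27025 genes in the table and 3.32% of the 17491 protein-coding ones. The Ets letters were in 9 (20%, against 7.83% and 10.2%), the Sp1 letters in 19 (42.2%, against 35.4% and 45.8%) and the estrogen-related receptor letters in 2 (4.44%, against 4.70% and 4.18%). A match is a description of letters, not a site, and the motifs do not overlap in the windows shown.

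In complex I, all 4 core subunits of the matrix arm that were tested (Ndufs1, Ndufs3, Ndufv1 and Ndufv2) were lower, with a median log2 difference of -0.84. Among them are the subunits that bind NADH and hold iron-sulfur clusters. Ndufs1, the largest of these proteins, had signals of 8265, 10076, 7781, 8052 and 11385 on the 5 FVB arrays (here and below in the order female 1/2, female 3, males 1, 2 and 3), and of 3403, 4561 and 6964 (lowest, median, highest) on the 6 transgenic arrays of 3 weeks. The groups did not overlap, and the transgenic female 2 array was the highest of its group. It differed by -0.94 ± 0.16 on the log2 scale (SE; limma adjusted p = 0.00021).

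Of the matrix arm accessory subunits, 7 of 8 were lower (median -0.77), and Ndufv3 differed most among all members of complex I. Ndufv3 sits on the NADH-oxidising module. Its signals were 4552, 4715, 5188, 5349 and 4767 on the FVB arrays, and 1096, 2212 and 3270 (lowest, median, highest) on the transgenic ones. The FVB values lay close together, the transgenic ones were spread widely, and the groups were well apart. It differed by -1.21 ± 0.14 (SE; limma adjusted p = 4.9e-06). Ndufab1, the mitochondrial acyl carrier protein, also works in fatty acid synthesis and was the one exception in this group. It read 7245 to 11284 in FVB and 4998 to 9631 in transgenic hearts, with overlap, and its difference was -0.27 ± 0.17 (limma adjusted p = 0.20).

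The membrane arm accessory subunits were the largest group, and 13 of 14 were lower (median -0.93). Ndufa3, a small subunit of this arm, had signals of 14630, 15240.0, 12612, 14398 and 15939 on the FVB arrays, and 3659, 6753 and 9571 (lowest, median, highest) on the transgenic ones. No array of one group reached the range of the other. The difference was -1.20 ± 0.16 (SE; limma adjusted p = 1.4e-05). Ndufc1 (-1.12), Ndufb2 (-1.10) and Ndufb8 (-1.05), other subunits of this arm, followed.

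Ndufb3, also of the membrane arm, stood out from its neighbours and is named here because of its values. It read 3401, 5564, 6359, 9261 and 6434 on the FVB arrays, and 3396, 5868 and 6276 (lowest, median, highest) on the transgenic ones. The ranges lay on top of each other, and the female 1/2 array was the lowest of the FVB group. Its difference was -0.09 ± 0.26 (limma adjusted p = 0.81), and it turned to 0.05 under quantile normalisation. The assembly factors Ndufaf1 and Ndufaf4, which help build complex I without staying in it, were lower by less, at -0.49 ± 0.16 and -0.60 ± 0.23 (limma adjusted p = 0.019 and 0.041), both with overlap between the groups.

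All 8 complex III members were lower and none overlapped between the groups. Uqcrc1, one of the core proteins on the matrix side, had signals of 18810, 19552, 14570.0, 15542 and 14572 on the FVB arrays, and 4898, 7737 and 11820 (lowest, median, highest) on the transgenic ones. Its difference of -1.15 ± 0.14 (SE; limma adjusted p = 9.1e-06) was the largest of complex III. The other core protein, Uqcrc2, differed by -0.83 ± 0.21.

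Cyc1, the cytochrome subunit of complex III that hands electrons to cytochrome c, read 32621, 32431, 23962, 23802 and 36359 in FVB. The transgenic arrays gave 12725, 15348 and 22322 (lowest, median, highest). The gap between the groups was narrow, since FVB males 1 and 2 lay only a little above the highest transgenic array. The difference was -0.91 ± 0.16 (SE; limma adjusted p = 0.00029). Among the 5 small subunits the median was -0.88. Uqcr11, one of these, had signals of 16683, 15558, 14551, 14643 and 14823 in FVB and 5453, 7149 and 12547 (lowest, median, highest) in transgenic hearts, a difference of -1.02 ± 0.13 (limma adjusted p = 1.5e-05). Its FVB values were nearly level.

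Cycs, the soluble carrier between complexes III and IV, behaved less clearly. It read 2351, 2794, 2990, 2556 and 2808 on the FVB arrays, and 1434, 1994 and 2280 (lowest, median, highest) on the transgenic ones. The groups did not overlap, by a small gap. The difference was -0.52 ± 0.22 (SE), with a limma adjusted p of 0.059 and an exact permutation p of 0.0043 for this gene alone (two-sided, unadjusted, over 462 splits of the arrays). With no overlap between the groups, that exact p is necessarily small. Under 8 of 34 alternatives Cycs passed the limma threshold, and under 25 it stayed below 0 and uncalled. On the common cardiomyocyte marker level it turned to 0.27.

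In the ATP synthase, all 4 members of the catalytic head were lower (median -0.82). Atp5e, the epsilon subunit of its central stalk, had the largest difference of all members. It read 7444, 10183, 7072, 7985 and 9420 on the FVB arrays, and 2423, 3338 and 5760.0 (lowest, median, highest) on the transgenic ones. The groups did not overlap, with the transgenic female 2 array again the highest. The difference was -1.24 ± 0.22 (SE; limma adjusted p = 0.00032).

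The c ring genes Atp5g1 and Atp5g2, which encode the same mature proton-carrying subunit, were lower by -0.77 ± 0.16 and -0.51 ± 0.13 (limma adjusted p = 0.0011 and 0.0049). Atp5g1 was dim, at 315, 224, 140, 163 and 178 on the FVB arrays and 109, 122 and 139 (lowest, median, highest) on the transgenic ones. The groups touched without overlapping, and the highest FVB value came from the female 1/2 array. A second, dimmer probe set of Atp5g1 differed by -0.42 ± 0.28 (limma adjusted p = 0.23).

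Of the small membrane subunits, 4 of 4 tested were lower (median -0.98). Atp5md, which is needed for the synthase to form dimers, read 31919, 28737, 20619, 20555 and 32090.0 on the FVB arrays, and 8699, 14591 and 17532 (lowest, median, highest) on the transgenic ones. The arrays of FVB males 1 and 2 were again the lowest of their group, yet above every transgenic array. The difference was -1.02 ± 0.19 (SE; limma adjusted p = 0.00037). The probe sets of Atp5md, Ndufa3 and 6 other members (Atp5d, Atp5g2, Ndufb2, Ndufb5, Uqcrb and Uqcrc2) carry Affymetrix's suffix for probes shared within a sequence family, so similar transcripts may add to their signal. The 3 peripheral stalk subunits Atp5j, Atp5o and Atp5pb were lower by -0.96, -0.87 and -0.85, and all of them overlapped between the groups. For Atp5pb the SE was 0.30 (limma adjusted p = 0.032).

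**Figure D2:**
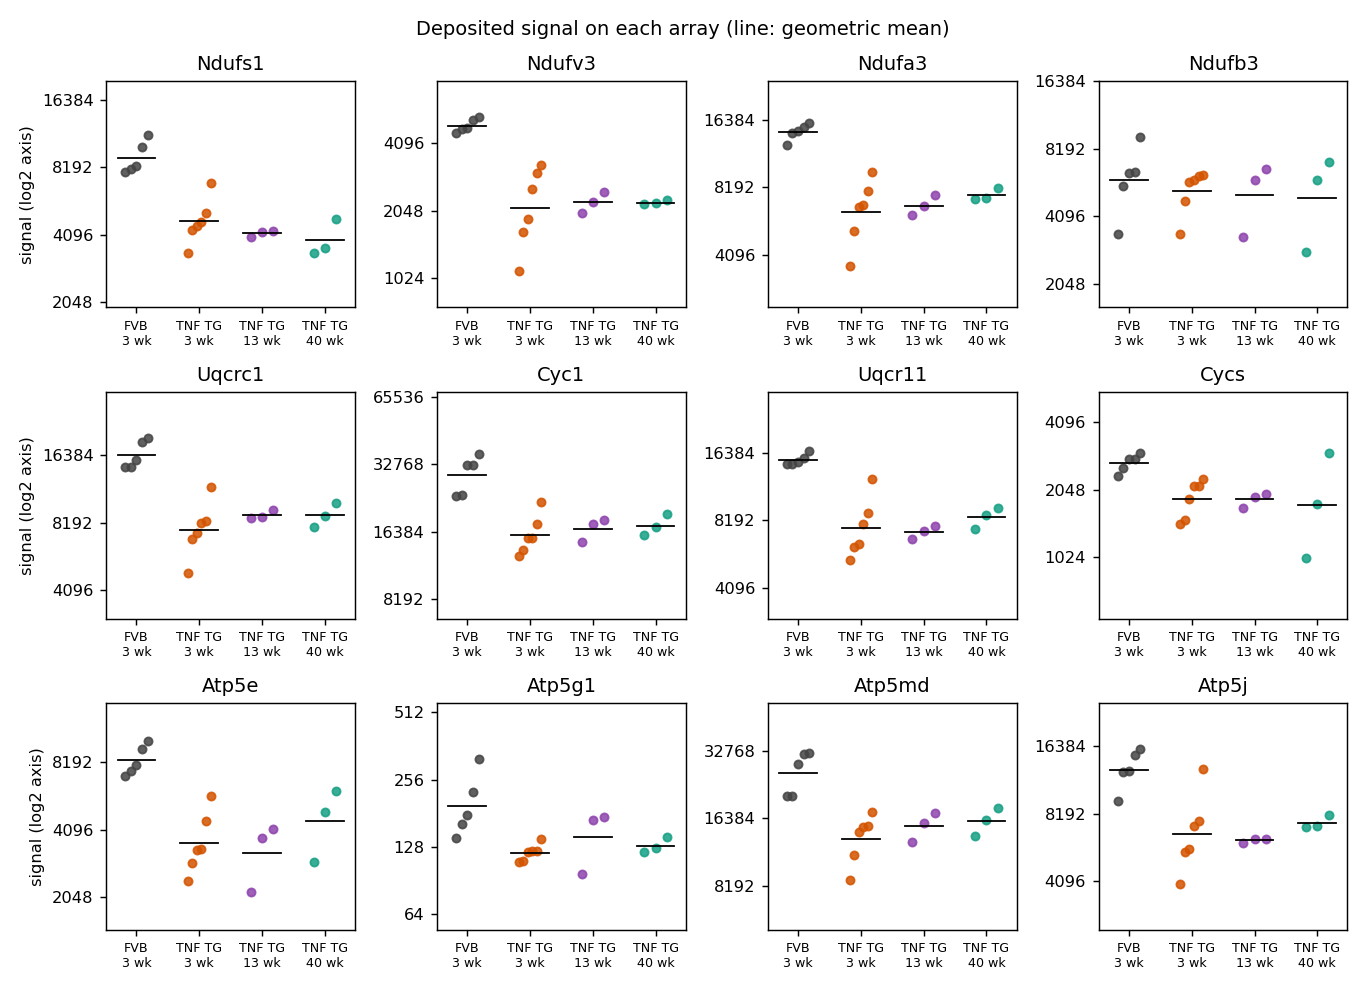
Deposited signal (y axis, log2 scale) on each array for 12 members, with FVB and transgenic (TG) arrays by age on the x axis and a line at the geometric mean. The 3-week transgenic points lie below the FVB points except for Ndufb3 and Atp5j, which were added after their values were seen.

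Over both sexes, second probe sets went in the same direction where they could be tested. Of the 8 genes with several tested probe sets, none had a probe set called higher. Ndufb2's other probe set differed by -1.36 ± 0.24, Atp5d's by between -1.18 and -0.66, and Cyc1's by -0.60 ± 0.15.

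The fall in these genes went with that of heart muscle markers as a whole. Of 22 cardiomyocyte markers, 19 were lower and 1 higher at 3 weeks (median -0.96), with Myh6 at -0.84, Myl2 at -0.85 and Tnni3 at -1.09. The higher one, named for its value, was Myh7 at 1.22 ± 0.21 (limma adjusted p = 0.00018). The summed signal of the 22 markers ranged from 301785 to 464981 on the FVB arrays and from 170100 to 308228 on the 3-week transgenic arrays. Macrophage and leukocyte markers moved the other way, with 21 of 24 tested higher and 1 lower (median 2.48, led in signal by Lyz2 at 3.67). Their sums were 9402 to 11931 in FVB and 58276 to 75678 in transgenic hearts. On the scale of the authors, 5 of 10 fibroblast markers were higher and 1 lower, and 2 of 7 smooth muscle markers were higher and 2 lower. In the remaining lists 0 were higher, and 4 of 10 endothelial, 1 of 3 adipocyte, 4 of 5 skeletal muscle (1 of them, Ckm, also a cardiomyocyte marker) and 3 of 4 erythroid markers were lower. The medians of these lists kept their sign under quantile normalisation and a common median. With the arrays set to a common cardiomyocyte marker level, that of the endothelial markers turned from -0.19 to 0.61 (1 lower, 5 higher), of the adipocyte markers from -0.61 to 0.18 and of the erythroid markers from -0.75 to 0.04 (0 lower), and 8 fibroblast markers were higher (median 1.22). The Actb 3′ to 5′ signal ratio was 1.29 to 1.97 in FVB and 1.12 to 1.44 in transgenic hearts of 3 weeks. The part of these in the members' fall was not tested.

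What could be measured is the members' level beside the cardiomyocyte markers. The 22 markers include Myh7, whose higher signal in transgenic hearts raises their mean there, and no level without it was computed. When all arrays were set to a common mean log2 level of these 22 markers, the median of all probe sets moved to 0.79. On this scale 1.13% of all probe sets were called lower and 66.3% higher. Of the members, 0 were lower and 2 higher, Ndufb3 at 0.71 and Ndufab1 at 0.52. The medians were -0.11 for complex I, -0.10 for complex III and -0.06 for the ATP synthase. Ndufv3 was at -0.42, Ndufa3 at -0.40, Uqcrc1 at -0.35 and Atp5e at -0.45, none of them called. Cycs was at 0.27.

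**Figure D3:**
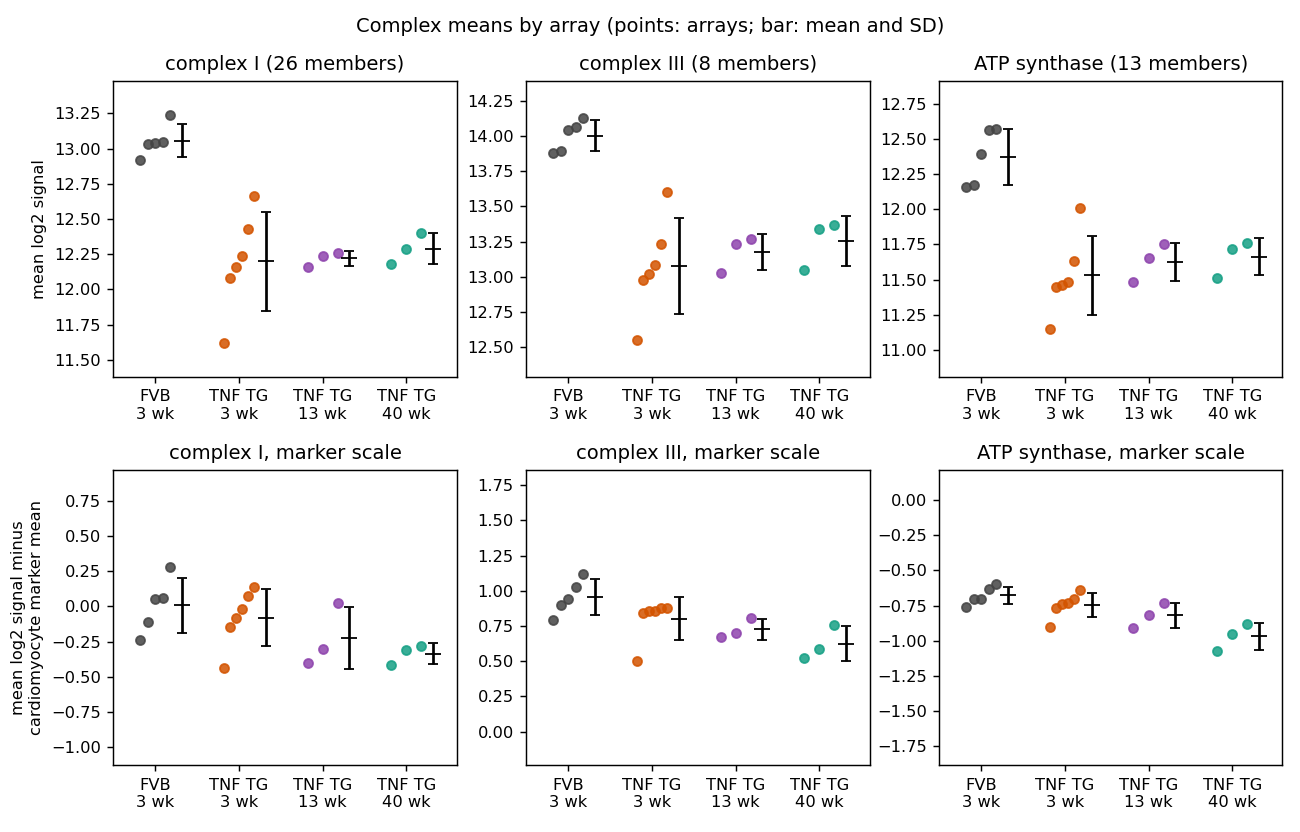
Mean log2 signal (y axis, upper row) of the tested members of each complex on every array, and the same minus the mean of the 22 cardiomyocyte markers (lower row), with mean and SD beside the points of each group. FVB points lie above all transgenic points in the upper row, and the groups of 3 weeks overlap in the lower row.

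The highest and the lowest of the 3-week transgenic arrays were the same in every complex. Complex I averaged 13.05 ± 0.12 (SD, n = 5) on the FVB arrays and 12.20 ± 0.35 (n = 6) on the 3-week transgenic arrays, on the log2 scale. Complex III averaged 14.00 ± 0.11 and 13.08 ± 0.34, and the ATP synthase 12.37 ± 0.20 and 11.53 ± 0.28. The transgenic female 2 array was the highest in all complexes (12.66, 13.60 and 12.01) and the transgenic male 3 array the lowest (11.62, 12.55 and 11.15). Beside the cardiomyocyte markers, female 2 lay within its group (-0.08, 0.86 and -0.74), and male 3 remained the lowest (-0.44, 0.50 and -0.90).

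The sexes were then taken apart. In males 45 of 50 members were lower (12.8% of all probe sets), with a median of -1.09. In females 29 were lower (15.3%), with a median of -0.71, but on the common cardiomyocyte marker level the female medians turned to 0.14, 0.07 and 0.05 for complexes I and III and the ATP synthase. The male ones were -0.33, -0.30 and -0.18 on that level. The difference between the sexes was called for 0 members (0% of all probe sets lower by limma). At an unadjusted limma p under 0.05 were 9 of the 50 members and 1228 of all 7453 probe sets. The male difference lay below the female one for 43 of 50 members and for 3922 of all probe sets. The members were read on the same arrays, so that count is not a test of sex. The arrays labelled FVB males 1 and 2 also carried Xist signal. Second probe sets were split on which sex fell further. The fall was larger in females for those of Atp5g1, Atp5l, Cyc1 (-0.90, males -0.31) and Ndufa3 (-0.89, males -0.53) and the dimmest tested of Atp5d. It was larger in males for those of Atp5c1, Ndufb2 and Ndufv2 and the brighter others of Atp5d. The widest gap was that of Ndufa13, a membrane arm subunit, at -1.53 ± 0.31 in males and -0.35 ± 0.35 in females (limma adjusted p of the difference 0.24). Ndufv3 differed by -1.76 ± 0.19 in males and -0.66 ± 0.21 in females (limma adjusted p of the difference 0.13), and Ndufa2, of the matrix arm, by -1.10 ± 0.21 and 0.01 ± 0.24 (0.15). Cyc1 stood at -0.90 ± 0.22 and -0.92 ± 0.24.

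The female count moved with both the arrays and the fit. Without the female 1/2 array it was 8 (6.24% of all probe sets lower), and without FVB female 3 it was 17 (17.7%), in each case with a lone FVB female assumed to vary like the other groups. It was 11 without transgenic female 1 (9.41%) and 15 without transgenic female 3 (10.1%). With every 3-week female array kept, it was 2 with array weights (1.82%), 4 when the 3-week female groups were fitted alone (4.15%), 12 with a common median (10.3%), 17 with quantile normalisation (15.7%) and 0 on the common cardiomyocyte marker level (0.805%). Without FVB female 3, the sex difference was called for 4 of 50 members, when 20% of all probe sets were called in either direction. Leaving out the arrays labelled FVB males 1 and 2 left FVB male 3 as the only FVB male. That array had the highest complex I and complex III means of the FVB arrays (13.24 and 14.13). The male medians against it were -1.37 (complex I) and -1.15 (ATP synthase). Leaving out the female 1/2 array as well left a lone FVB array of each sex and the same male medians.

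Within the transgenic mice, no member was called with age on the scale of the authors and in the design given above. From 3 to 13 weeks in males, limma called 0 members, while 0.174% of all probe sets were called lower and 0.349% higher. At an unadjusted limma p under 0.05 were 4 of the 50 members and 642 of all 7453 probe sets. The median log2 difference of the members was 0.24, and 48 of 50 lay above 0. On the common cardiomyocyte marker level, however, the complex medians turned to -0.05, -0.01 and -0.05 for complexes I and III and the ATP synthase. On the scale of the authors, leaving out 1 array at a time gave medians of 0.08 to 0.35, 0.10 to 0.40 and 0.11 to 0.33. The 3-week males compared here include transgenic male 3, the lowest 3-week transgenic array in every complex. In 9 members every 13-week array was above every 3-week one and in 0 below, against 7.57% and 8.22% of all probe sets. Ndufa13 moved most, from 1951, 2751 and 1994 to 3990.0, 5431 and 3683, without overlap (0.97 ± 0.31, limma adjusted p = 0.28). The others without overlap included Ndufv3 (0.57), Uqcrc1 (0.50), Ndufa8 (0.45, whose promoter is printed above) and Ndufs3 (0.38).

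From 3 to 40 weeks in females, limma called 0 members, while 0.295% of all probe sets were called lower and 0.376% higher. At an unadjusted limma p under 0.05 were 2 of the 50 members and 678 of all 7453 probe sets. The median of the members was -0.09, and they ranged from -0.51 for Atp5o to 0.23 for Atp5a1. The complex medians were -0.14, 0.01 and -0.02 for complexes I and III and the ATP synthase, and -0.36, -0.22 and -0.24 on the common cardiomyocyte marker level. With array weights 3 members were called lower, as were 5.25% of all probe sets. In 4 of the 50 members every 40-week array was below every 3-week one and in 0 above, against 7.57% and 9.49% of all probe sets. The share below was thus near that of all probe sets. The 4 members were Atp5o, Ndufa6, Ndufv3 and Ndufb11. Atp5o, the stalk subunit that ties the head to the stalk, read 9155, 16454 and 11587 at 3 weeks and 8584, 8165 and 8694 at 40 weeks, a difference of -0.51 ± 0.22 (limma adjusted p = 0.49). The later arrays lay just under the lowest early one. The change to 40 weeks differed from that to 13 weeks for 0 members (0% of all probe sets).

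**Figure D4:**
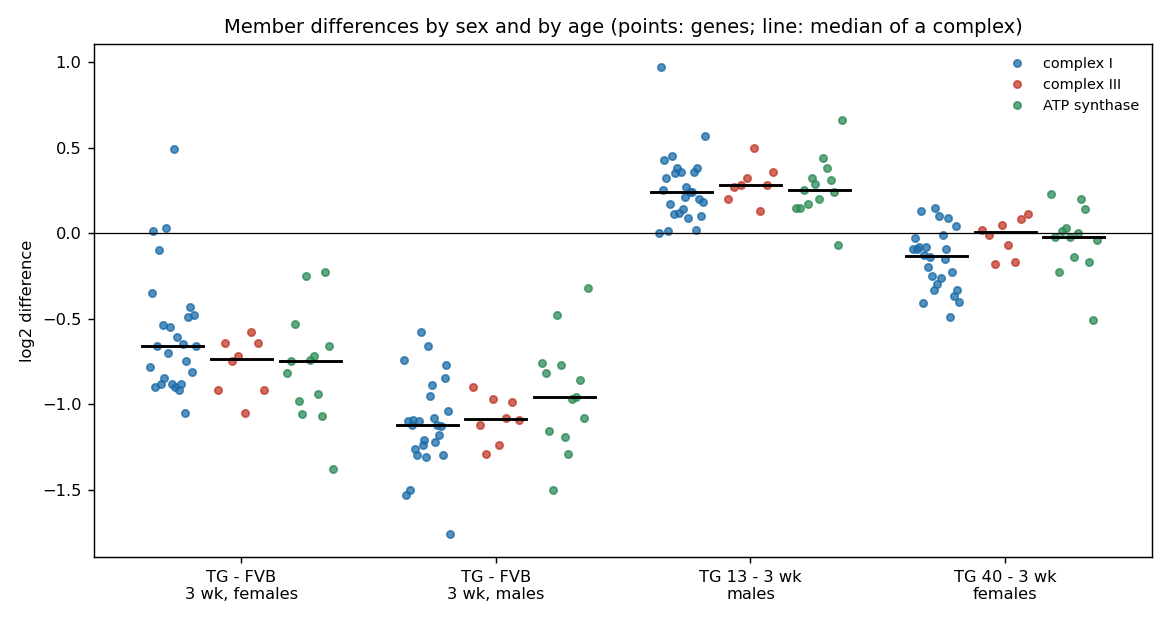
Log2 differences (y axis) of the members of each complex for 4 comparisons (x axis), as points with a line at the median of each complex. The first pair lies below 0 for most members, further down in males, and the female medians turn to just above 0 on the common cardiomyocyte marker level. The medians of the changes with age lie within 0.28 of 0. On that level those to 13 weeks turn from above to below 0, and those to 40 weeks move down to -0.36, -0.22 and -0.24.

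The low level was also seen at the later ages. Complex I averaged 12.22 ± 0.05 (SD, n = 3) at 13 weeks and 12.29 ± 0.11 (n = 3) at 40 weeks, complex III 13.18 ± 0.13 and 13.25 ± 0.17, and the ATP synthase 11.63 ± 0.13 and 11.66 ± 0.13. All these arrays lay below the FVB range of their complex. Beside the cardiomyocyte markers, complex I stood at 0.01 ± 0.20 in FVB, -0.08 ± 0.20 in transgenic hearts of 3 weeks, -0.23 ± 0.22 at 13 weeks and -0.34 ± 0.07 at 40 weeks. Complex III stood at 0.96 ± 0.13, 0.80 ± 0.15, 0.73 ± 0.07 and 0.63 ± 0.13, and the ATP synthase at -0.68 ± 0.06, -0.75 ± 0.09, -0.82 ± 0.09 and -0.97 ± 0.09. Of the markers, Myh7 differed by 0.91 ± 0.27 from 3 to 40 weeks in transgenic females (limma adjusted p = 0.22), and ranges without it were not computed. Beside all 22 markers no 40-week array reached the FVB range in any complex. For complex I they lay between -0.42 and -0.28, against -0.24 to 0.28 in FVB, for complex III between 0.52 and 0.76, against 0.79 to 1.12, and for the ATP synthase between -1.07 and -0.88, against -0.76 to -0.60. FVB hearts of 13 or 40 weeks were not analysed here, so age and transgene cannot be told apart in this last comparison.

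Other parts of oxidative phosphorylation were lowered at 3 weeks as well. All 4 subunits of complex II, which feeds electrons in from succinate, were lower (median -0.79), with Sdhb at -0.97 ± 0.15 and Sdhc at -0.69 ± 0.13. Of the nuclear-encoded subunits of complex IV, which passes electrons to oxygen, 9 of 12 were lower and 0 higher (median -0.91). The muscle forms Cox8b (-1.73 ± 0.15) and Cox7a1 (-1.33 ± 0.18) led them. Of the carriers and inner membrane proteins, 7 of 11 were lower (median -0.57), led by the uncoupling protein Ucp3 (-1.47 ± 0.21) and the mitochondrial creatine kinase Ckmt2 (-0.92 ± 0.18). Genes of mitochondrial DNA were not analysed here.

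Of 5 further assembly factors tested, 4 were lower (median -0.71), with Foxred1, of complex I, at -0.89 ± 0.18 and Uqcc2, of complex III, at -0.71 ± 0.16. The other was Surf1, which serves complex IV rather than these complexes, at -0.27 ± 0.12 (limma adjusted p = 0.068). Another complex III assembly factor, Uqcc1, is named for its value at the later age: it was called higher at 13 than at 3 weeks in males (1.01 ± 0.20, limma adjusted p = 0.031). Of 10 regulators of respiratory genes that were tested, 5 were lower and 1 higher. Ppara, a receptor that drives fatty acid oxidation genes, differed by -1.29 ± 0.15 (limma adjusted p = 3.2e-06) and Esrra, an estrogen-related receptor, by -0.96 ± 0.15 (0.00012). The coactivator Ppargc1a, named after its value was seen, differed by -0.93 ± 0.33 (0.031). Gabpa, the Ets factor whose letters were searched above, differed by -0.04 ± 0.16 (0.88). All of these are on the scale of the authors, on which the cardiomyocyte markers had a median of -0.96. On the common cardiomyocyte marker level the median was 0.01 for complex II (0 called), -0.12 for complex IV (2 lower, 2 higher), 0.22 for the carriers (1 lower, 2 higher), 0.08 for the assembly factors (0 lower, 1 higher) and 0.54 for the regulators (1 lower, 5 higher). The 4 genes still called lower there were Cox8b (-0.93), Ucp3 (-0.68), Cox7a1 (-0.54) and Ppara (-0.50), and no member was among them. Gabpa was among those called higher there (0.76, limma adjusted p = 0.0084), and the assembly factor called higher was Surf1 (0.52, 0.018).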

How the data were processed

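RNA of mouse heart had been hybridised by the authors to Affymetrix U74Av2 arrays, which carry short oligonucleotide probes, 1 array per sample per the labels. The deposited values are probe set intensities (signal, linear scale) that the authors had scaled, since their mean, trimmed to the span from the 2nd to the 98th percentile, was 499.2 to 499.9 on every array. Which software and background method made them is not given in the sources used here. The number of arrays limits the precision. Values under 44.675, the 25th percentile of all values, were set to it, and log2 was taken. Leaving out 66 control probe sets, the 60% of 12422 with the highest mean (7453) were tested with limma 3.58.1 in R 4.3.3 on 6 group means, with Benjamini-Hochberg adjustment and calls under 0.05. Groups came from the sample titles. Genes were named from GEO's platform annotation, and promoters matched by symbol. The script was tested on simulated data.

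Members, role lists, marker lists and pathway lists were chosen with earlier results of these data known. Signals by array are given for the called, non-overlapping member of largest difference in each role list, plus Cycs and Cyc1, and for other pathway lists the 2 genes of smallest p are named, for marker lists up to 3 of highest signal. Other names are said to have been chosen after their values were seen, or only illustrate a range. Alternatives covered scaling (quantile, common median, common cardiomyocyte marker level), floor, filter, variance model, design, arrays left out and choice of probe set.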

Additional observations from a re-analysis of the deposited data

Results flagged for a closer look

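In 5 of 106 groups of 4 to 10 arrays an end value was set apart from the next by more than Dixon's test allows, about as many as chance gives (1 in 20). On the log2 scale, Atp5k, a small membrane subunit of the ATP synthase, read 8.49 on the transgenic male 3 array, against 9.43 for the next 3-week transgenic array. Ndufa9, of the matrix arm of complex I, read 13.56 on the transgenic female 2 array, against 12.84. The other 3 fell on the FVB female 1/2 array: Atp5mpl was lowest there at 13.48 (next 13.75), Ndufaf4 lowest at 7.88 (next 9.10) and Ndufc1 highest at 14.16 (next 13.80).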

How the results depend on the processing

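With the arrays set to a common cardiomyocyte marker level, members called lower at 3 weeks numbered 0 (females 0, males 2) and members called higher 2 (females 3). Of all probe sets, 1.13% were called lower (females 0.805%, males 1.52%) and 66.3% higher (females 49.9%). The medians of complex I, complex III and the ATP synthase were then -0.11, -0.10 and -0.06 over both sexes, 0.14, 0.07 and 0.05 in females, -0.33, -0.30 and -0.18 in males, -0.05, -0.01 and -0.05 from 3 to 13 weeks, and -0.36, -0.22 and -0.24 from 3 to 40 weeks. Single genes were recomputed only for the role-list members given array by array, Cycs, Cyc1 and the members not called at 3 weeks. Of these, Atp5g1 (0.02), Cycs (0.27), Ndufab1 (0.52) and Ndufb3 (0.71) turned above 0. Whether other members did so was not listed gene by gene. Under quantile normalisation the medians were -0.71, -0.62 and -0.57 over both sexes, -0.44, -0.45 and -0.44 in females and -0.93, -0.80 and -0.67 in males, 17 members were called lower in females, and Ndufb3 was at 0.05. With a common median, 12 were called lower in females and the male median of complex I was -1.30. Array weights gave 2 lower in females (1.82% of all probe sets) and 3 from 3 to 40 weeks (5.25%), and fitting the compared groups alone gave 4 in females. With the sexes pooled, the complex I median was 0.03 from 3 to 13 weeks and 0.09 from 3 to 40 weeks. With both identical columns kept, the sex difference was called for 2 members and 2.33% of all probe sets.

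Leaving out 1 array at a time, members called lower numbered 42 to 48 over both sexes, 8 to 33 in females and 40 to 47 in males, and the sex difference was called for 0 to 4 (at 4, for 20% of all probe sets). Where both FVB female arrays stayed in, 18.4% to 22.3% of all probe sets were called lower over both sexes. The shares were then 9.41% to 15.7% in females and 9.03% to 13% in males. Over all these fits, the male medians ranged from -1.30 to -0.94 (complex I), -1.18 to -0.86 (complex III) and -1.08 to -0.71 (ATP synthase). The female median of the ATP synthase ranged from -0.98 to -0.61, and the difference of Ndufb3 from -0.26 to 0.09. Without the arrays labelled FVB males 1 and 2, with FVB male 3 as the only FVB male, the male medians were -1.37 (complex I) and -1.15 (ATP synthase). They were the same without FVB female 1/2 as well. Same-numbered samples did not clearly deviate together (median correlation 0.0542, from -0.336 to 0.466, against a median of 0.00828 for differently numbered ones). With 2 or 3 arrays in a group this cannot exclude a pairing. The main fit did not use the numbers as pairs. A replicate block gave 45 members lower over both sexes, 23 in females and 45 in males (20.8%, 13.2% and 12.8% of all probe sets). For these values the cause was not tested. Of 907 recomputed counts and medians, 855 stayed within the limits set. These were a fixed ratio for counts, and for medians the pooled SD between arrays (0.18 for complex I, 0.21 for complex III and 0.19 for the ATP synthase). Many could hardly move, since the array left out was not in the groups compared, so this share does not measure stability. With no filter on dim probe sets, 45 of 54 members were called lower at 3 weeks, as were 16.4% of all probe sets.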
